A study of Mus musculus with 48 samples.

Results

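The 47 genes described here are mouse interferon-stimulated genes (ISGs), fixed by name and sorted into 10 classes by what their proteins do, and each was found in the count tables by matching its Ensembl identifier to its symbol. They are 47 of 46983 genes counted. Permanent middle cerebral artery occlusion (MCAO) is a model of ischemic stroke in which the artery is coagulated and cut, so that it does not reopen. The series holds 48 brain libraries from 3-month-old male C57Black/6 mice, for which no transgene is named, in 11 groups: unoperated control (n = 4), sham surgery at 3 h, 12 h, day 1, day 3 and day 7 (n = 4 each), and MCAO at the same times (n = 5 each, and n = 4 on day 1). Sham animals were operated on in the same way but without closing the artery, so anesthesia (isoflurane in the study's methods) and surgery are shared by sham and MCAO. At dissection the methods name pentobarbital. Tissue was cut from the injured cortical region and held affected as well as non-affected brain, and the study's text speaks of most of the hemisphere on the injured side. Nothing in the labels says how much of each a sample held. Values are counts of transcript 3′ ends relative to all counted reads of the library (counts per 1000000, CPM), scaled between libraries by the trimmed mean of M-values. They are compared here between groups of one gene and not between genes.

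Interferons are secreted proteins that cells release when they sense foreign or misplaced nucleic acid. Type I interferons (interferon-α and -β) bind the IFNAR receptor, whose kinases JAK1 and TYK2 phosphorylate STAT proteins, STAT2 among them. With IRF9 these form a complex that binds the interferon-stimulated response element (ISRE) in the promoters of ISGs, whereas interferon-γ acts through its own receptor, IFNGR, on a different element, GAS. The induced proteins restrict virus entry, translation and replication, present antigen, or feed back on the pathway, and in the injured brain they are known from microglia, infiltrating myeloid cells, endothelium and astrocytes.

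The libraries held between 1522668 and 2826735 gene counts (median 1935856), and no pair of libraries was identical. The 5 members with a mean under 1 CPM over the 48 libraries (*Mx1*, *Oasl1*, *Oas2*, *Oas1a* and *Oas3*) rest on few counts. The study counts the replicates of its bulk samples as mice. Nothing in the labels says which mouse or batch a replicate letter stands for, so each library was taken as a separate sample of its group, and the p-values measure only the spread between these libraries. A pair of libraries stood apart for these genes. MCAO replicate E at 12 h had a summed ISG level of 1381 CPM where replicates A to D had 359, 364, 694 and 474 CPM. MCAO replicate A on day 3 had 292.5 CPM where replicates B to E had 1099.9, 1233, 889 and 1342 CPM, beside 228.5 to 261 CPM in the day 3 sham libraries. The same day 3 library also had the lowest summed level of the microglia markers of its group (512 CPM against 937 to 1826 CPM in the others). Counts of calls are given with and without both libraries. Since the samples are bulk tissue, a change in the number of cells of a type and a change in RNA per cell cannot be told apart.

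The summed level of the 47 genes was higher after MCAO than after sham surgery in every library from 12 h on. Their summed level was 255 ± 15.4 CPM (SD, n = 4) in control and between 213 ± 25.1 CPM (SD, n = 4) at 3 h and 276 ± 29.4 CPM (SD, n = 4) on day 7 in the sham groups. In the MCAO groups it was 274 ± 46.8 CPM (SD, n = 5) at 3 h, 654 ± 428 CPM (SD, n = 5) at 12 h, 538 ± 75.5 CPM (SD, n = 4) on day 1, 971 ± 415 CPM (SD, n = 5) on day 3 and 828 ± 131 CPM (SD, n = 5) on day 7. From 12 h on the MCAO and sham libraries of one time did not overlap. At 3 h the ranges overlapped, with 231 to 344 CPM in MCAO and 194 to 249.7 CPM in sham. The spread was widest at 12 h and day 3, the groups that hold the libraries named above. Without *Ifitm3*, the most counted member, the MCAO means were 229, 486, 383, 725 and 689 CPM in order of time. The 12 h mean of 486 CPM rested on replicate E with 1134.5 CPM, where replicates A to D held 238.1, 243.2, 483.5 and 330.0 CPM.

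**Figure D1:**
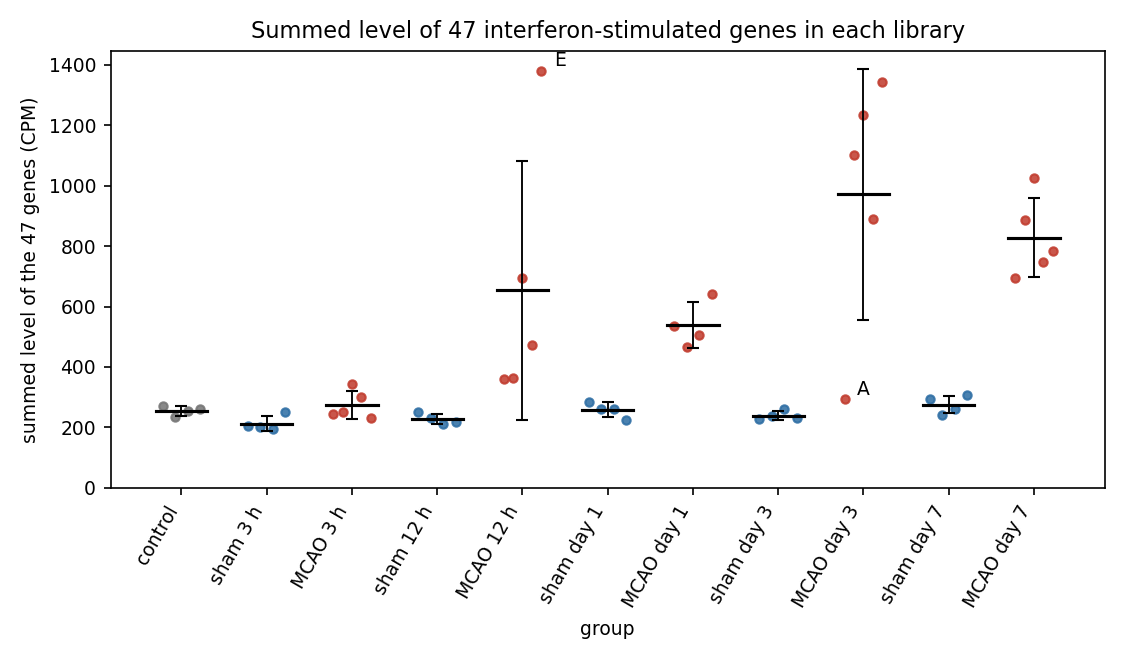
Summed level of the 47 ISGs in CPM (y axis) in each of the 48 libraries, by group (x axis; gray control, blue sham, red MCAO); the bars are the group mean and SD. Sham and control libraries stay between 194 and 307 CPM, MCAO replicate E at 12 h reaches 1381 CPM, and MCAO replicate A on day 3 lies at 292.5 CPM, below the others of its group.

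The summed level gives most weight to the most counted genes, so the median over the 47 members of the log2 ratio to the control mean (1 CPM added to each) was also taken in each library. In sham it stayed between -0.26 and 0.12. In MCAO it was -0.09 to 0.35 at 3 h, 0.11 to 2.19 at 12 h, 0.63 to 1.21 on day 1, 0.03 to 2.14 on day 3 and 1.26 to 1.58 on day 7. On this scale the day 7 libraries were the most alike of the 4 later MCAO groups (SD 0.13, n = 5), whereas those of 12 h and day 3 had SDs of 0.85 and 0.87 (n = 5 each).

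Gene by gene, MCAO was compared with the sham of the same time by edgeR's quasi-likelihood test over 19970 genes, and calls required an adjusted p (Benjamini-Hochberg) below 0.01 and an absolute log2 fold change above 0.58. On day 3, 21 of the 47 members were called (44.7%) where 4.02% of all genes were, and each of the 21 was higher in MCAO (3.76% of all genes were called and higher). On day 7, 17 members were called (36.2%), all higher, where 3.5% of all genes were called and 2.07% were called and higher. The 47 members and the other lists were chosen with earlier results of these data known. Their shares beside those of all genes are therefore a description and not an independent test. At 12 h, 2 members (*Rsad2* and *Ifitm3*) were called where 0.411% of all genes were, and on day 1 only *Ifitm3* was, beside 0.0901% of all genes. At 3 h no member was called at edgeR's threshold (0.11% of all genes were), and DESeq2 also called 0. By edgeR, 3 of the 47 members had an unadjusted p under 0.05 at 3 h, beside 1688 of the 19970 genes. No member was called lower at any time. Scaling to the ERCC spike-ins moved the balance of all calls, from 750 of 802 higher to 463.0 of 594.0 on day 3 and from 413 of 698 to 403.0 of 489.0 on day 7, whereas the 17.0 and 19.0 members called then were again all higher.

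The median log2 fold change over the 47 members was 0.49 at 3 h, 1.52 at 12 h, 1.2 on day 1, 2.08 on day 3 and 1.96 on day 7, while over all genes tested it stayed between 0.00 and 0.06. It was 0.20 at 3 h without MCAO replicate D, and 0.88 at 12 h without MCAO replicate E, which is below the day 1 median. With members that were absent from the sham libraries set against a floor of 3 sham counts, the medians were 0.38, 1.38, 1.11, 2.06 and 1.92. The number of members for which every MCAO library lay above every sham library was 3 at 3 h (2.27% of all genes tested), 5 at 12 h (2.03%), 16 on day 1 (3.73%), 16 on day 3 (4.33%) and 33 on day 7 (5.38%). No member was separated in the other direction. Day 1 had far fewer calls than day 3 although as many members were separated. Fewer libraries are separated more easily, and MCAO had 4 on day 1 and 5 on day 3. On day 3 the library that overlapped was mostly MCAO replicate A. Without that library 28 members were called on day 3, beside 6.79% of all genes. Without MCAO replicate E, only *Ifitm3* was called at 12 h, beside 0.161% of all genes. The day 7 count depended on the sham libraries. It fell to 6 without sham replicate B, beside 2.12% of all genes, to 8 without C (3.23%) and to 9 without D (1.21%). It was 11 without sham A (2.34%), MCAO B (3.39%) or MCAO C (1.42%).

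**Figure D2:**
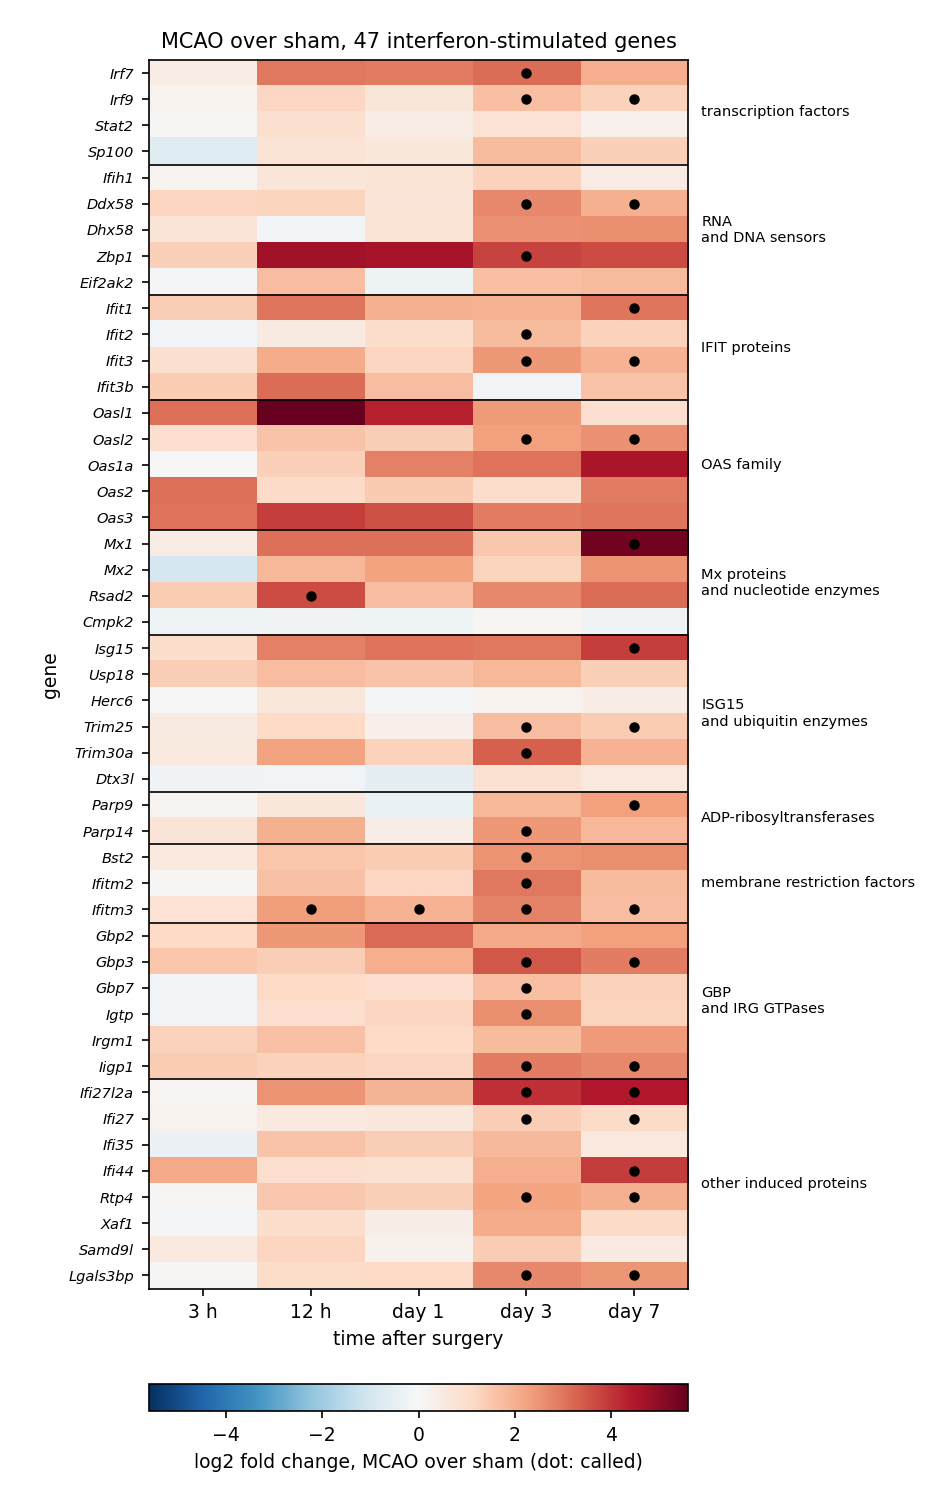
Log2 fold change of MCAO over the sham of the same time (color) for each of the 47 ISGs (y axis, grouped by class) at the 5 times (x axis); a dot marks a call. Dots number 2 at 12 h, 1 on day 1, 21 on day 3 and 17 on day 7. The deep colors of *Oasl1*, *Oas1a*, *Oas2*, *Oas3*, *Mx1* and *Zbp1* rest on few sham counts and are not bounds.

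Calls overlapped between days 3 and 7. 12 members were called on both days (57.1% of the day 3 calls and 70.6% of the day 7 calls): *Irf9*, *Ddx58*, *Ifit3*, *Oasl2*, *Trim25*, *Ifitm3*, *Gbp3*, *Iigp1*, *Ifi27l2a*, *Ifi27*, *Rtp4* and *Lgals3bp*. Over all genes 239 were called on both days, 29.8% of the day 3 calls and 34.2% of the day 7 calls. On day 3 alone there were 9 calls (*Irf7*, *Zbp1*, *Ifit2*, *Trim30a*, *Parp14*, *Bst2*, *Ifitm2*, *Gbp7* and *Igtp*), and on day 7 alone 5 (*Ifit1*, *Mx1*, *Isg15*, *Parp9* and *Ifi44*). A call on one day and not on the other does not show that the days differed. The test of that difference, the MCAO effect on day 7 against that on day 3, called no member and 0% of all genes; 2 members had an unadjusted p under 0.05.

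**Figure D3:**
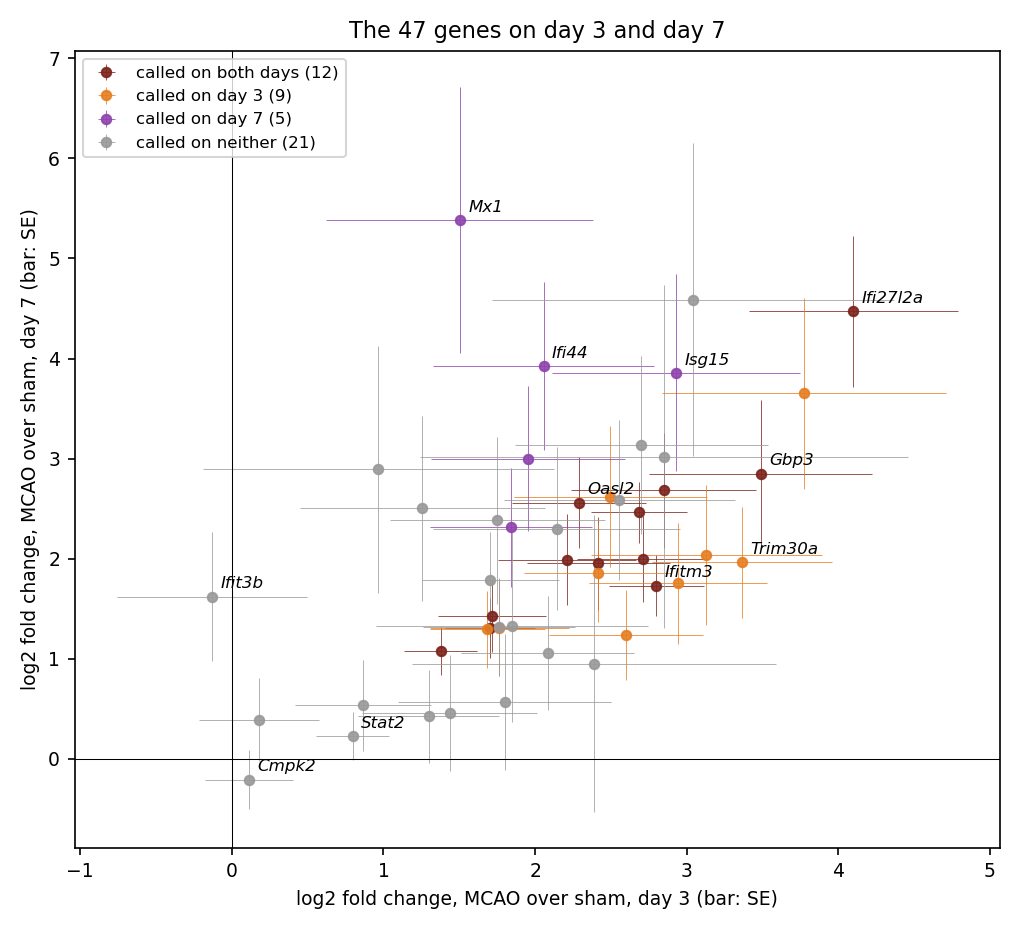
Log2 fold change of MCAO over sham on day 3 (x axis) and on day 7 (y axis) for the 47 ISGs, with bars of 1 SE; color gives the day on which a gene was called. Most genes lie above 1 on both axes, *Cmpk2* lies near 0 on both, and *Ifit3b* lies near 0 on day 3 and at 1.62 on day 7.

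Promoter sequence was read for the members with an entry among the RefSeq promoter windows (GRCm38.p6, 250 bases before to 50 bases after a transcript start). 35 of the 47 members had one, in 40 windows. An ISRE core was searched as GAAANNGAA on either strand (TTCNNTTTC on the other), and it was present in 24 of the 40 windows (60%) and in 8.56% of all 32851 windows. The GAS core TTCNNNGAA, the same on both strands, was present in 8 of the 40 windows (20%) and in 8.3% of all windows. Among the members with a window, the ISRE core was found in 13 of the 18 called on day 3 or day 7 and in 10 of the 17 called on neither day. A match is a description of these letters in this window and not a bound site. The windows of *Gbp3*, *Trim30a*, *Ifitm2* and *Isg15* are shown (the upstream window where a gene has several) because these had the largest day 3 fold changes among the genes given below in full whose window holds the core. They are written 5′ to 3′ on the gene's own strand, with the bases of each ISRE core in capitals and overlapping cores run together.
*Gbp3*, chr3:142559794-142560093, plus strand, 2 cores that begin 44 and 38 bases before the start: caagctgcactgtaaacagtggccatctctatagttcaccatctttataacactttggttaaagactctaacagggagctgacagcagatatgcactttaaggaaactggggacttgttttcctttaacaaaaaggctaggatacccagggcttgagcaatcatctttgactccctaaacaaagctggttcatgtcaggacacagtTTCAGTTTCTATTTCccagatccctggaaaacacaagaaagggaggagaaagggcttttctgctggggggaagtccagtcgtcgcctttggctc
*Trim30a*, chr7:104465144-104465443, minus strand, 1 core that begins 35 bases before the start: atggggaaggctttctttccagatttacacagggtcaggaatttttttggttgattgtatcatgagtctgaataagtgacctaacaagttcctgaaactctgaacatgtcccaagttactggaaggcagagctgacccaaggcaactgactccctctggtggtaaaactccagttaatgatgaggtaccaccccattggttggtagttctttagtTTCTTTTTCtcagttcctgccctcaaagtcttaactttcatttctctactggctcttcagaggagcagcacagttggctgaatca
*Ifitm2*, chr7:140955912-140956211, minus strand, 1 core that begins 46 bases before the start: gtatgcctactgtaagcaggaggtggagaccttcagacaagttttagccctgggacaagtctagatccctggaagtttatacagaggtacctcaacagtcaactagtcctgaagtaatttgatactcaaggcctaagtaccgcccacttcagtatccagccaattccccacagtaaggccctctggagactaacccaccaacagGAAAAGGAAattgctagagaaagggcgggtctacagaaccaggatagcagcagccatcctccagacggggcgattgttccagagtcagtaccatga
*Isg15*, chr4:156200769-156201068, minus strand, 3 cores that begin 78, 72 and 66 bases before the start: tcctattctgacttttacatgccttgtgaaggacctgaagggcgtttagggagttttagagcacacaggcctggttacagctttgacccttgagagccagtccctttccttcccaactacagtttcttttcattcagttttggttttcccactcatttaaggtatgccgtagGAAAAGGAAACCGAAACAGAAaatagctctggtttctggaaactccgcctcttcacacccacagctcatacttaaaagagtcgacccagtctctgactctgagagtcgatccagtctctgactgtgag
The cores of *Gbp3* and *Trim30a* read on the opposite strand and those of *Ifitm2* and *Isg15* on the gene's own strand. In *Isg15* the 3 cores overlap in one run.

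Among the 4 transcription factors of the list, *Irf9* (chr14:55603571-55610030, plus strand), the DNA-binding partner of STAT2, had the highest mean count. On day 3 *Irf9* stood at 13.3, 62.4, 75.4, 48.3 and 65.7 CPM in MCAO replicates A to E against 16.3, 20.8, 14.9 and 13.1 CPM in sham replicates A to D. Replicates B to E lay well above the sham range, and replicate A lay inside it. The log2 fold change was 1.70 ± 0.30 (SE; adjusted p = 8.61e-05), a call lost when only these 2 groups were fitted. On day 7 all MCAO libraries (39.2, 59.0, 43.4, 39.8 and 42.0 CPM) lay above the sham libraries (20.03, 14.5, 13.6 and 24.2 CPM), with a log2 fold change of 1.30 ± 0.30 (SE; adjusted p = 0.00367). The day 7 call was lost in 4 settings, with control in place of sham and without MCAO B, sham B or sham C. Its annotated span overlaps *Rnf31* on the same strand, so reads in the shared part could not be assigned to either gene.

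*Irf7* (chr7:141262706-141266481, minus strand), the factor that amplifies interferon production once induced, had 0 counts in each of the 4 control libraries. Its span overlaps *Phrf1* on the opposite strand, so reads in the shared part are uncertain. On day 3 it stood at 3.20, 15.8, 6.99, 8.79 and 9.70 CPM in MCAO replicates A to E and at 1.45, 0.462, 0.934 and 0.937 CPM in sham replicates A to D. All 5 MCAO libraries were above all 4 sham libraries, and the log2 fold change was 3.13 ± 0.76 (SE; adjusted p = 0.00502), a call that was lost without MCAO replicate B or E or without any 1 of the sham libraries. On day 7 MCAO stood at 8.65, 10.2, 5.95, 11.036 and 8.14 CPM and sham at 1.72, 1.40, 0.545 and 4.56 CPM, again without overlap, with a log2 fold change of 2.04 ± 0.70 (SE; adjusted p = 0.0566), which was not a call. At 12 h MCAO replicate E had 17.9 CPM and the others 0 to 4.17 CPM. *Stat2*, another component of the ISRE-binding complex, stood at 19.3, 28.6, 22.4, 27.1 and 38.7 CPM in MCAO replicates A to E and at 15.1, 16.7, 12.6 and 13.2 CPM in sham replicates A to D at 12 h, without overlap. Its log2 fold changes were 0.92 ± 0.24 (SE; adjusted p = 0.0389) at 12 h, 0.80 ± 0.24 (SE; adjusted p = 0.0274) on day 3 and 0.23 ± 0.24 (SE; adjusted p = 0.604) on day 7, and it was not called at any time. *Sp100*, a nuclear body protein, had a log2 fold change of 1.76 ± 0.50 (SE) on day 3 and was not called.

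Of the 5 nucleic acid sensors, *Ddx58* (chr4:40203773-40239828, minus strand), which encodes the RNA sensor RIG-I, was called on both later days. On day 3 *Ddx58* stood at 5.34, 19.4, 29.0, 18.1 and 25.6 CPM in MCAO replicates A to E and at 2.90, 4.15, 1.87 and 2.81 CPM in sham replicates A to D. The groups did not overlap, replicate A was again the lowest MCAO library, and the log2 fold change was 2.71 ± 0.43 (SE; adjusted p = 2.14e-05). On day 7 the MCAO libraries held 12.1, 13.2, 16.7, 14.9 and 18.8 CPM and the sham libraries 2.86, 5.13, 1.64 and 5.02 CPM, with a log2 fold change of 2.00 ± 0.43 (SE; adjusted p = 0.00193), a call lost without sham replicate C. *Ifih1* (MDA5) had a log2 fold change of 1.30 ± 0.47 and *Dhx58* (LGP2) of 2.55 ± 0.76 on day 3 (SE), neither called.

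*Zbp1* (chr2:173206612-173218923, minus strand), a sensor of Z-form nucleic acid that can trigger cell death, was hardly present without injury. It had 0 counts in control and in the sham groups of 3 h, 12 h and day 1, and 2 counts in all in sham on each of days 3 and 7. On day 3 MCAO stood at 0.534, 3.61, 5.49, 5.37 and 3.97 CPM (40 counts in all). From the summed counts this was a ratio of 17.7 (95% exact interval 4.59 to 151, counting error only). On day 7 MCAO stood at 2.88, 2.04, 8.33, 2.40 and 3.76 CPM (34 counts), a ratio of 14.9 (95% exact interval 3.81 to 128). At 12 h and on day 1 MCAO had 15 and 12 counts in all. These were 4.47 and 3.21 times the level of 3 counts over the sham group, without the counting error of MCAO. The MCAO and sham libraries overlapped at 12 h and not on day 1. It was called on day 3 (log2 fold change 3.77 ± 0.94 SE, adjusted p = 0.00771) and the call was lost in 12 of its alternative settings, among them DESeq2 and the omission of any sham library. *Eif2ak2*, the kinase PKR that stops translation, had a log2 fold change of 1.70 ± 0.45 (SE; adjusted p = 0.0103) on day 3 and 1.78 ± 0.49 (SE; adjusted p = 0.0138) on day 7, just outside the threshold.

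The 4 IFIT genes, whose proteins bind viral RNA lacking host cap methylation, lie close together on chromosome 19 within chr19:34550694-34650009. *Ifit3* (chr19:34583531-34588731, plus strand) on day 3 stood at 7.47, 52.0, 19.98, 32.7 and 47.2 CPM in MCAO replicates A to E and at 3.99, 5.54, 10.3 and 4.22 CPM in sham replicates A to D. Replicate A overlapped with sham and the rest did not, and the log2 fold change was 2.42 ± 0.47 (SE; adjusted p = 0.000412). On day 7 the levels were 35.8, 39.7, 16.7, 31.2 and 31.3 CPM in MCAO and 6.29, 7.00, 4.36 and 13.7 CPM in sham, without overlap (log2 fold change 1.96 ± 0.47 SE, adjusted p = 0.00465). *Ifit1* (chr19:34640871-34650009, plus strand) on day 7 had 12.1, 18.8, 3.57, 13.9 and 19.4 CPM in MCAO replicates A to E and 1.72, 0.467, 2.18 and 2.28 CPM in sham replicates A to D, with a log2 fold change of 3.00 ± 0.73 (SE; adjusted p = 0.00545), and on day 3 one of 1.95 ± 0.64 (SE; adjusted p = 0.0471). The day 7 call of *Ifit1* was lost in 7 alternative settings, among them control in place of sham and the omission of any 1 sham library, and that of *Ifit3* in 4, without sham A, B or C or MCAO B. *Ifit1* was one of only 3 members that separated the groups at 3 h, with 8.44, 5.67, 7.55, 3.88 and 4.56 CPM in MCAO and 3.56, 0.576, 1.79 and 2.73 CPM in sham, although its log2 fold change there (log2 fold change 1.39 ± 0.71 SE, adjusted p = 0.598) was not a call. *Ifit2* was called on day 3 with a log2 fold change of 1.76 ± 0.46 (SE; adjusted p = 0.00898). *Ifit3b*, the near copy of *Ifit3*, had a log2 fold change of 3.11 ± 0.77 at 12 h, without a call, and -0.13 ± 0.63 on day 3 (SE), the lowest of the 47 genes on that day. Reads that fit both copies equally were not counted for either, so the split between *Ifit3* and *Ifit3b* is uncertain.

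The OAS family makes 2′-5′ oligoadenylate, the signal that activates RNase L, or in the OASL proteins binds RNA and sensors without that activity. *Oasl2* (chr5:114896936-114912234, plus strand) was the member of this class with enough counts to compare. On day 3 *Oasl2* stood at 6.94, 39.3, 26.0, 28.8 and 31.3 CPM in MCAO replicates A to E and at 6.53, 5.54, 4.67 and 4.68 CPM in sham replicates A to D. On day 7 it stood at 30.6, 47.3, 27.4, 23.5 and 24.4 CPM in MCAO replicates A to E and at 4.58, 4.67, 4.91 and 6.39 CPM in sham replicates A to D. The groups did not overlap on either day, though replicate A on day 3 exceeded the highest sham library only narrowly. The log2 fold changes were 2.29 ± 0.44 (SE; adjusted p = 0.000338) and 2.56 ± 0.45 (SE; adjusted p = 0.000216). *Oasl1*, *Oas1a*, *Oas2* and *Oas3* each had under 1 CPM on average and no call. *Oasl1* had 0, 2, 1, 0 and 23 counts in MCAO replicates A to E at 12 h and 0 over the sham libraries, so nearly all of its counts there came from replicate E. On day 7 *Oas2* had 21 counts in MCAO and 2 in sham, a ratio of 9.18 (95% exact interval 2.24 to 80.7). *Oas1a* had 13 and 0, with overlap between the libraries. That was 3.79 times the level of 3 counts over the sham group, without the counting error of MCAO.

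*Rsad2* (chr12:26442746-26456452, minus strand), which encodes viperin, an enzyme that makes a chain-terminating nucleotide, was 1 of the 2 members called at 12 h and is given library by library for that reason. At 12 h it stood at 3.34, 3.40, 17.2, 8.24 and 219 CPM in MCAO replicates A to E and at 1.68, 3.13, 6.28 and 3.90 CPM in sham replicates A to D. Replicate E was far above the rest, C and D were above the sham range, and A and B lay inside it. The log2 fold change was 3.65 ± 0.75 (SE; adjusted p = 0.00589). It was no call without replicate E or without any 1 of the sham libraries. The call was also lost with the replicate letter as a block and when only these 2 groups were fitted. On day 7 the pattern was even, with 12.1, 18.3, 9.52, 17.3 and 16.9 CPM in MCAO against 1.72, 1.40, 1.09 and 2.28 CPM in sham, and the log2 fold change of 3.14 ± 0.89 (SE; adjusted p = 0.0186) missed the threshold.

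*Cmpk2* (chr12:26469204-26479837, plus strand), a mitochondrial nucleotide kinase gene next to *Rsad2* on the opposite strand, overlapped between sham and MCAO at each time. It stood at 16.5, 20.8, 11.5, 23.9 and 19.8 CPM in MCAO replicates A to E on day 3 and at 15.6, 16.2, 19.6 and 17.3 CPM in sham replicates A to D. On day 7 it stood at 18.5, 20.4, 14.3, 20.2 and 23.8 CPM in MCAO and at 30.9, 18.2, 15.3 and 25.5 CPM in sham. Its log2 fold changes lay between -0.26 ± 0.31 (SE; adjusted p = 0.89) at 3 h and 0.11 ± 0.29 (SE; adjusted p = 0.871) on day 3. *Mx1* (chr16:97447035-97462907, minus strand), a GTPase that blocks influenza-like viruses and is defective in most inbred mouse strains, had 1.73, 3.56, 2.97, 2.40 and 1.88 CPM on day 7 in MCAO (23 counts in all) and 0 counts in sham. That was 6.7 times the level of 3 counts over the sham group, without the counting error of MCAO. The call there (adjusted p = 0.0072) was lost with DESeq2 and in 10 other settings. *Mx2* had a log2 fold change of 2.5 ± 0.92 (SE) on day 7 and was not called.

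In the ISG15 class, *Isg15* (chr4:156199424-156200818, minus strand), a ubiquitin-like protein that is attached to other proteins and whose promoter is shown above, held 0.558, 0, 0 and 0.571 CPM in control. On day 7 it stood at 13.8, 21.9, 12.5, 8.64 and 11.9 CPM in MCAO replicates A to E and at 1.14, 0.467, 1.64 and 0.456 CPM in sham replicates A to D, a log2 fold change of 3.86 ± 0.98 (SE; adjusted p = 0.00838), a call lost in 8 alternative settings, which were the omission of any 1 sham library or of MCAO A, B, C or E. On day 3 it stood at 1.60, 19.9, 19.5, 9.77 and 41.4 CPM in MCAO replicates A to E and at 2.90, 0.462, 0 and 6.09 CPM in sham replicates A to D, with overlap through replicate A and no call (log2 fold change 2.93 ± 0.82 SE, adjusted p = 0.0155). On day 1 all 4 MCAO libraries were alike (8.92, 7.95, 8.90 and 9.17 CPM) and above sham (1.19, 0, 0 and 2.62 CPM), and this too was not a call (log2 fold change 3.03 ± 1.04 SE, adjusted p = 0.281).

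*Trim30a* (chr7:104409025-104465193, minus strand), a ubiquitin ligase that dampens inflammatory signaling and whose promoter is also shown, had one of the largest changes of day 3. It stood at 3.74, 33.4, 44.4, 45.4 and 43.6 CPM in MCAO replicates A to E and at 2.90, 5.54, 0 and 4.68 CPM in sham replicates A to D. Replicates B to E were close together and far above sham, and replicate A fell within the sham range. The log2 fold change was 3.36 ± 0.59 (SE; adjusted p = 8.99e-05) on day 3 and 1.96 ± 0.56 (SE; adjusted p = 0.0177) on day 7. At 12 h replicate E had 85.2 CPM and the other MCAO libraries 5.56 to 14.1 CPM. *Herc6* (chr6:57581000-57664632, plus strand), the ligase that attaches ISG15 in mice, held 8.54, 14.0, 19.5, 9.28 and 20.7 CPM in MCAO and 16.0, 13.8, 3.74 and 17.3 CPM in sham on day 3. Its ranges overlapped at each time, and its log2 fold changes were 0.18 ± 0.39 (SE; adjusted p = 0.848) and 0.39 ± 0.41 (SE; adjusted p = 0.605) on days 3 and 7. *Trim25*, the ligase that activates RIG-I, was called on both days (log2 fold change 1.71 ± 0.36 SE, adjusted p = 0.000913 and 1.43 ± 0.37 SE, adjusted p = 0.00874). *Usp18*, which removes ISG15 and blocks the receptor, had a log2 fold change of 1.85 ± 0.89 and *Dtx3l* 0.87 ± 0.45 (SE) on day 3, without a call.

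Of the ADP-ribosyltransferases, *Parp14* (chr16:35832874-35871544, minus strand) on day 3 stood at 4.27, 26.2, 17.978, 13.7 and 35.7 CPM in MCAO replicates A to E and at 5.08, 3.69, 3.27 and 2.34 CPM in sham replicates A to D, with a log2 fold change of 2.41 ± 0.49 (SE; adjusted p = 0.000575), a call lost when only the 2 groups were fitted. It was among the 5 members separated at 12 h, with 5.56, 8.74, 12.5, 7.06 and 39.9 CPM in MCAO against 3.91, 3.65, 3.33 and 3.51 CPM in sham. *Parp9* (chr16:35938470-35972605, plus strand), the partner of DTX3L, on day 7 stood at 8.08, 6.11, 16.7, 6.72 and 10.6 CPM in MCAO replicates A to E and at 1.72, 1.40, 1.09 and 3.19 CPM in sham replicates A to D, with a log2 fold change of 2.31 ± 0.60 (SE; adjusted p = 0.00915). That call was lost in 9 alternative settings, among them the replicate block and the omission of any 1 sham library. On day 3 its replicate A had 1.07 CPM and the other MCAO libraries 14.0 to 17.98 CPM. *Parp9* and *Dtx3l* overlap head to head on opposite strands, and since the counting's strand setting is not given in the sources used here, reads in the shared part are uncertain.

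*Ifitm3* (chr7:141009586-141010770, minus strand), a membrane protein that keeps viruses from fusing with endosomes, was the only member for which each MCAO library was above each sham library at all 5 times. At 3 h it stood at 39.8, 55.3, 48.7, 43.1 and 41.0 CPM in MCAO replicates A to E and at 25.7, 24.8, 22.9 and 29.4 CPM in sham replicates A to D, without overlap but without a call (log2 fold change 0.83 ± 0.32 SE, adjusted p = 0.405). At 12 h it stood at 121, 120.4, 210.2, 144 and 247 CPM in MCAO replicates A to E and at 53.1, 31.3, 25.1 and 24.9 CPM in sham replicates A to D. On day 1 it stood at 161, 129, 146 and 185 CPM in MCAO replicates A to D and at 55.2, 30.3, 37.2 and 39.8 CPM in sham replicates A to D. Here the libraries of one group resembled each other, and replicate E at 12 h was only the highest of 5 high values. On day 3 it stood at 55.5, 226, 389.5, 186 and 376 CPM in MCAO replicates A to E and at 34.1, 33.2, 42.5 and 31.9 CPM in sham replicates A to D. On day 7 it stood at 87.1, 115, 224, 138 and 134 CPM in MCAO replicates A to E and at 49.2, 28.9, 42.5 and 47.4 CPM in sham replicates A to D. On day 3 replicate A was again the lowest, and on day 7 replicate C was the highest. The log2 fold changes were 2.34 ± 0.31 (SE; adjusted p = 2.45e-05) at 12 h, 1.93 ± 0.32 (SE; adjusted p = 0.000667) on day 1, 2.80 ± 0.31 (SE; adjusted p = 3.33e-08) on day 3 and 1.73 ± 0.31 (SE; adjusted p = 0.000208) on day 7. The day 1 call was lost without sham replicate B.

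*Ifitm2* (chr7:140954837-140955987, minus strand), a nearby and close paralog of *Ifitm3*, on day 3 stood at 9.08, 15.4, 63.9, 9.28 and 40.1 CPM in MCAO replicates A to E and at 1.81, 0.462, 7.94 and 4.22 CPM in sham replicates A to D. The libraries spread widely, with replicates C and E highest, and the log2 fold change was 2.94 ± 0.59 (SE; adjusted p = 0.000522), which was no call when only these 2 groups were fitted. On day 7 replicate C held 42.2 CPM and the other MCAO libraries 3.76 to 10.4 CPM, against 1.87 to 5.47 CPM in sham. Reads that fit *Ifitm2* and *Ifitm3* alike were not counted. *Bst2*, which encodes tetherin, the protein that holds budding virus at the membrane, was called on day 3 (log2 fold change 2.5 ± 0.64 SE, adjusted p = 0.00773) and not on day 7 (log2 fold change 2.62 ± 0.70 SE, adjusted p = 0.0123).

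**Figure D4:**
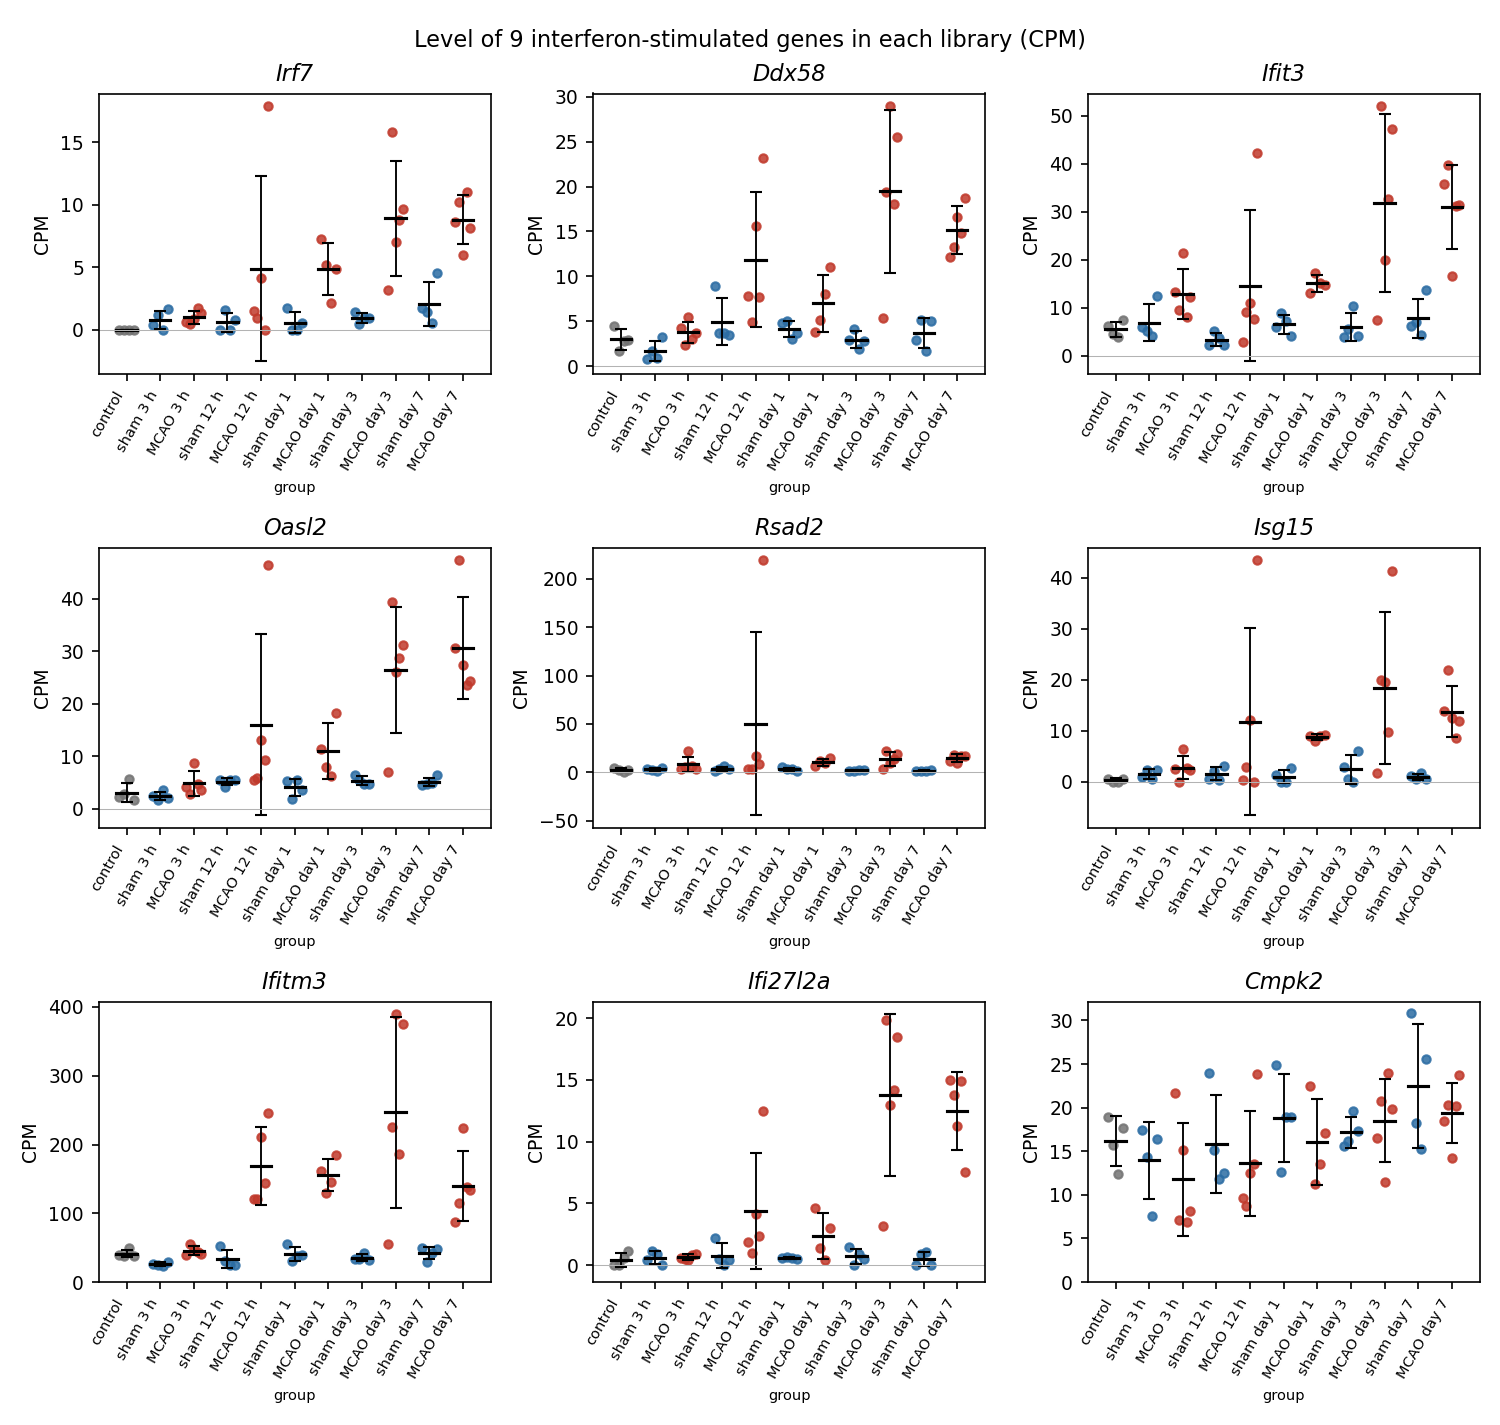
Level in CPM (y axis, a scale for each panel) of 9 ISGs in each library, by group (x axis; gray control, blue sham, red MCAO), with the group mean and SD as bars. *Ifitm3* is above sham in each MCAO library from 12 h on, *Rsad2* reaches 219 CPM in 1 MCAO library at 12 h, and *Cmpk2* overlaps between sham and MCAO at all times.

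The guanylate-binding proteins and IRG GTPases attack the vacuoles of intracellular pathogens and are classic targets of interferon-γ. *Gbp3* (chr3:142560026-142573209, plus strand), whose promoter is shown above, on day 3 stood at 4.27, 7.68, 6.49, 13.7 and 13.2 CPM in MCAO replicates A to E and at 1.09, 0, 0.934 and 0.937 CPM in sham replicates A to D, and on day 7 at 8.08, 9.67, 7.14, 6.24 and 8.14 CPM in MCAO replicates A to E and at 2.29, 0, 1.64 and 0.456 CPM in sham replicates A to D. On both days each MCAO library was above each sham library, replicate A of day 3 included. The log2 fold changes were 3.49 ± 0.73 (SE; adjusted p = 0.00102) and 2.85 ± 0.73 (SE; adjusted p = 0.00874), the second lost in 11 alternative settings. *Gbp7* (chr3:142530342-142550149, plus strand) had 5.87, 46.1, 39.5, 23.9 and 21.2 CPM in MCAO replicates A to E and 8.70, 6.001, 11.7 and 7.496 CPM in sham replicates A to D on day 3 (log2 fold change 1.69 ± 0.38 SE, adjusted p = 0.00229), a call lost in 7 settings, among them spike-in scaling and the omission of sham A, B or D. *Iigp1* was called on both days (log2 fold change 2.85 ± 0.61 SE, adjusted p = 0.00128 and 2.68 ± 0.58 SE, adjusted p = 0.00186) and *Igtp* on day 3 (log2 fold change 2.60 ± 0.51 SE, adjusted p = 0.00038), where its span overlaps *Irgm2* on the same strand. *Gbp2* and *Irgm1* were not called, with log2 fold changes of 2.14 ± 0.81 and 1.75 ± 0.71 (SE) on day 3.

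Of the 8 other induced genes, *Ifi27l2a* (chr12:103442167-103443680, minus strand), a small protein of the nuclear and mitochondrial membranes, had the largest called log2 fold change on day 3. It stood at 3.20, 19.9, 13.0, 14.2 and 18.5 CPM in MCAO replicates A to E and at 1.45, 0, 0.934 and 0.468 CPM in sham replicates A to D on day 3, and at 15.0, 13.7, 11.3, 14.9 and 7.52 CPM in MCAO replicates A to E and 0, 0.933, 1.09 and 0 CPM in sham replicates A to D on day 7. No MCAO library overlapped with sham on these days, and replicate A was again the lowest on day 3. The log2 fold changes were 4.10 ± 0.69 (SE; adjusted p = 4.68e-05) and 4.47 ± 0.76 (SE; adjusted p = 0.000117). Its neighbor *Ifi27* (chr12:103434211-103440239, plus strand) was present in each control library (39.6, 25.3, 27.7 and 24.0 CPM) and had a smaller log2 fold change. It stood at 34.2, 66.0, 85.4, 81.1 and 56.0 CPM in MCAO replicates A to E and 24.7, 22.2, 27.6 and 24.8 CPM in sham replicates A to D on day 3, and at 60.6, 73.3, 84.5, 54.7 and 46.3 CPM in MCAO and 25.2, 29.9, 36.5 and 29.2 CPM in sham on day 7, with log2 fold changes of 1.38 ± 0.24 (SE; adjusted p = 8.13e-05) and 1.08 ± 0.24 (SE; adjusted p = 0.00245), the second lost in 4 settings (without MCAO C or sham A, B or D). *Lgals3bp*, a secreted binder of galectin-3, had the smallest adjusted p of the class (log2 fold change 2.68 ± 0.31 SE, adjusted p = 6.04e-08 and 2.46 ± 0.31 SE, adjusted p = 2.27e-06). *Rtp4*, whose span overlaps *Masp1* on the opposite strand so that shared reads are uncertain, was also called on both days (log2 fold change 2.21 ± 0.45 SE, adjusted p = 0.00077 and 1.99 ± 0.45 SE, adjusted p = 0.00312), and *Ifi44* on day 7 alone (log2 fold change 3.93 ± 0.84 SE, adjusted p = 0.00185). *Ifi35*, *Xaf1* and *Samd9l* were not called, with log2 fold changes of 1.80 ± 0.70, 2.08 ± 0.57 and 1.44 ± 0.58 (SE) on day 3.

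The course over time was tested as the MCAO effect at a time against that at the time before. From 3 h to 12 h, 42 of the 47 members had a larger effect, with a median of 1.11 on the log2 scale, and 7 had an unadjusted p under 0.05. The median was 0.36 without MCAO replicate E at 12 h. From 12 h to day 1, 13 members had a larger effect (median -0.20, 2 with an unadjusted p under 0.05), and from day 1 to day 3, 37 had (median 0.89, 11 with an unadjusted p under 0.05). From day 3 to day 7, 19 had (median -0.29, or -0.44 to -0.11 leaving out 1 library at a time). Over all 19970 genes, 51.4%, 49.2%, 51.7% and 48.7% had a larger effect in the 4 steps, in order of time. An unadjusted p under 0.05 was found for 1421, 1015, 1762 and 3231 of all genes in these steps. The direction from 12 h to day 1 turned without that replicate E (median 0.28). With spike-in scaling the medians of the last 3 steps were 0.04, 0.48 and 0.10, beside 0.23, -0.33 and 0.30 over all genes. The members' medians of the first and the last of these steps were then above 0 but still below those of all genes. No member was called in any of the 4 steps by edgeR or DESeq2, beside 0.01%, 0.01%, 0.01% and 0% of all genes. Neighboring steps share their libraries. By the mean of each MCAO group, 25 members were highest in MCAO on day 3, 15 on day 7, 6 at 12 h and 1 on day 1. With MCAO replicate E at 12 h and replicate A on day 3 left out, a choice made after the data were seen, these numbers were 38, 6, 1 and 2.

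Sham surgery was compared with unoperated control at each time. No member was called by edgeR or DESeq2 at any of the 5 times, beside 0%, 0.0351%, 0.01%, 0% and 0% of all genes at 3 h, 12 h, day 1, day 3 and day 7. Between 0 and 3 members had an unadjusted p under 0.05 by edgeR, beside 731 to 1604 of the 19970 genes. The medians over the 47 members lay between -0.17 and 0.07 on the log2 scale. With spike-in scaling these medians lay between -0.244 and -0.001, beside -0.240 to -0.039 over all genes. *Irf7* had 0 counts in control, and the highest of the 20 sham libraries stood at 4.56 CPM.

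Genes of the pathway above the ISGs were read from lists of their own, beside 3.76% of all genes called and higher on day 3 and 2.07% on day 7. The 21 interferon genes listed, type I, II and III, gave 3 counts in all 48 libraries among 97098705 gene counts, from *Ifnk* and *Ifng*. The other 19 had none, which allows a level of up to 0.0309 CPM over all libraries, for counting error only. That level pools control, sham and MCAO libraries, and within 1 library the floor of 3 counts was 1.09 to 1.9 CPM. Reads with several alignments were not counted, so these levels do not hold for interferon-α genes that are near copies of each other. Of the 6 receptor chains, *Ifnar2* (log2 fold change 1.22 ± 0.32 SE, adjusted p = 0.0093), *Ifngr1* (log2 fold change 1.29 ± 0.32 SE, adjusted p = 0.00619) and *Il10rb* (log2 fold change 2.12 ± 0.50 SE, adjusted p = 0.00349), the chain shared with interleukin-10 family receptors, were called higher on day 3. *Ifnar1*, the other chain of the type I receptor, had a log2 fold change of 0.67 ± 0.26 (SE; adjusted p = 0.1) on day 3 and 0.73 ± 0.26 (SE; adjusted p = 0.0676) on day 7. No receptor chain was called at another time.

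Of 4 genes for kinases and STAT proteins, *Stat3*, which serves interleukin-6 type cytokines, was called at 12 h (log2 fold change 1.27 ± 0.23 SE, adjusted p = 0.000994) and on day 3 (log2 fold change 1.31 ± 0.22 SE, adjusted p = 6.41e-05), whereas *Jak1*, *Jak2* and *Tyk2* were not called at any time. Among 5 further IRF genes, *Irf8*, a myeloid lineage factor, was called on days 3 and 7 (log2 fold change 2.62 ± 0.36 SE, adjusted p = 1.36e-06 and 2.65 ± 0.37 SE, adjusted p = 6.31e-06), *Irf1* on day 3 (log2 fold change 1.53 ± 0.35 SE, adjusted p = 0.00289) and *Irf5* on day 7 (log2 fold change 2.84 ± 0.67 SE, adjusted p = 0.00412). *Irf3*, the factor that starts interferon transcription and is constitutive, had a log2 fold change of 0.53 ± 0.29 (SE; adjusted p = 0.293) on day 3 and was not called.

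Of 13 genes for sensing nucleic acid upstream of interferon, 11 had enough counts to test and 4 were called higher on day 3 (3.76% of all genes were): *Tlr7* (log2 fold change 2.52 ± 0.63 SE, adjusted p = 0.00619), the endosomal receptor for single-stranded RNA, *Myd88* (log2 fold change 1.85 ± 0.44 SE, adjusted p = 0.00388), its adapter, and *Cgas* (log2 fold change 2.42 ± 0.57 SE, adjusted p = 0.00348) and *Tmem173* (log2 fold change 2.15 ± 0.46 SE, adjusted p = 0.00113), the DNA sensor cGAS and its adapter STING. None was called at another time. *Mavs*, the adapter of RIG-I, had a log2 fold change of 0.25 ± 0.36 and *Tbk1* -0.52 ± 0.26 (SE) on day 3. Of 7 inhibitors, *Socs3* was called at 12 h (log2 fold change 3.61 ± 0.78 SE, adjusted p = 0.00821) and on day 3 (log2 fold change 3.30 ± 0.68 SE, adjusted p = 0.00081) and the phosphatase gene *Ptpn6* on days 3 and 7 (log2 fold change 3.79 ± 0.59 SE, adjusted p = 1.42e-05 and 2.42 ± 0.56 SE, adjusted p = 0.00373). *Socs1* had a log2 fold change of 1.49 ± 0.77 (SE; adjusted p = 0.249) on day 3 and was not called.

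A list of 54 other interferon-induced genes was read the same way. Of its 49 tested members, 10 were called on day 3 and 11 on day 7, all higher (3.76% and 2.07% of all genes were), with median log2 fold changes of 1.70 and 1.70, and 1 at 12 h (*Ifitm1*, log2 fold change 3.60 ± 0.71 SE, adjusted p = 0.00334). Genes of antigen presentation on class I molecules were among them. *B2m*, the light chain, had a log2 fold change of 1.91 ± 0.28 (SE; adjusted p = 7.15e-06) on day 3 and 1.70 ± 0.28 (SE; adjusted p = 9.65e-05) on day 7, *Psmb8*, an immunoproteasome subunit, 3.83 ± 0.54 (SE; adjusted p = 2.95e-06) and 3.03 ± 0.53 (SE; adjusted p = 0.000208), and *Tapbp* 1.23 ± 0.24 (SE; adjusted p = 0.000326) and 1.00 ± 0.24 (SE; adjusted p = 0.00449). *Ifi204*, a DNA-binding protein, was called on both days as well, with 0.534 to 16.3 CPM in MCAO on day 3 and 0 to 0.462 CPM in sham. The chemokine gene *Cxcl10* was not called at any time (log2 fold change 4.72 ± 1.54 SE, adjusted p = 0.0466 on day 3), although its MCAO libraries of day 7 held 17.3, 11.7, 7.73, 6.24 and 10.6 CPM and sham 0, 0, 0 and 1.37 CPM. *Adar* and *Znfx1*, also in the list, were not called on day 3, with log2 fold changes of -0.38 ± 0.14 and -0.06 ± 0.17 (SE).

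Markers of several cell types were higher in the same groups as the ISGs. Of 7 microglia markers, 5 were called higher on day 3 and 2 on day 7 (*Fcrls* and *Cx3cr1* on both), where 3.76% and 2.07% of all genes were. Their summed level, of which *Cx3cr1* gave the most, was 282 to 342 CPM in control, 417, 294, 188, 460.0 and 322 CPM in MCAO replicates A to E at 12 h, 416 to 543 CPM on day 1 (sham 279.9 to 363 CPM), 512, 937, 1826, 1259 and 1557 CPM on day 3 and 519, 751, 1919, 565 and 809 CPM on day 7. At 12 h, where 0.411% of all genes were called, no microglia marker was called higher and *P2ry12* was called lower (log2 fold change -1.78 ± 0.39 SE, adjusted p = 0.00927). Of 7 markers of border or infiltrating myeloid cells, 2 were called on day 3 (*Plac8* and *Ccr2*) and 2 on day 7 (*Ms4a7* and *Plac8*), all higher, beside the same shares of all genes. Their summed level, led by *Mrc1*, was 9.60, 10.7, 19.8, 25.3 and 51.8 CPM at 12 h, 16.1 to 34.8 CPM on day 1 (sham 3.70 to 9.40 CPM), 10.7, 43.4, 119, 23.0 and 77.6 CPM on day 3 and 16.2, 22.9, 93.4, 27.3 and 16.9 CPM on day 7, against 6.2 to 11.1 CPM in sham on day 3. The part of these cells in the ISG changes was not tested.

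The neutrophil markers were highest in the same 12 h library as the ISGs. Their summed level, led by *S100a8*, was 12.2, 31.5, 176, 176 and 1712 CPM in MCAO replicates A to E at 12 h and 2.20 to 3.10 CPM in sham. On day 1 it was 31.4 to 59.3 CPM in MCAO and 3.10 to 7.00 CPM in sham. For these 3 cell types the MCAO and sham libraries of day 1 did not overlap. On day 3 it was 4.80, 17.2, 622, 12.7 and 73.2 CPM, with the high value in replicate C. Of 7 tested neutrophil markers, *S100a8* and *S100a9* were called higher at 12 h and on day 3, where 0.411% and 4.02% of all genes were called. *Ly6g*, a defining marker, had 9 counts in all 48 libraries. Whether neutrophils had a part in the ISG level of replicate E was not tested. Of the T and NK cell markers, *Cd3d*, *Cd3e* and *Cd3g* had 9, 3 and 1 counts over all libraries. *Cd4*, which myeloid cells can also express, had 769 counts and gave most of the list's sum, which was 1.40 to 59.3 CPM in MCAO on day 1, 3.80 to 27.1 CPM in MCAO on day 7 and up to 25.3 CPM in control. None of the 4 tested genes of this list was called at any time. Among markers of plasmacytoid dendritic cells, known as large producers of type I interferon, only *Siglech*, which microglia also express, was called (day 3). *Klk1* and *Cd300c* had 2 and 7 counts in all, and *Tcf4*, which neurons also express, gave most of the sum.

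Neuron markers were abundant, as the brain label states. The 8 neuron markers summed to 7708 to 8297 CPM in control and to 7712, 6821, 5192, 5876 and 5095 CPM in MCAO replicates A to E on day 3, with the highest value in the library that had the lowest ISG sum. Fibroblast markers, led by *Col1a2*, reached 202, 248, 5959, 585 and 527 CPM in MCAO on day 7, each above the sham libraries (72.1 to 156 CPM) and replicate C far above the rest. On day 3 they summed to 107 to 1404 CPM in MCAO and 130.2 to 224 CPM in sham. Of the 7 fibroblast markers, 3 were called higher on day 3 and 5 on day 7, where 3.76% and 2.07% of all genes were, and their part in the ISG levels was not tested. MCAO replicate C of day 7 also had the highest ISG sum of its group (1025 CPM), and the others lay between 695 and 887 CPM. Striatal markers, led by *Ppp1r1b*, varied within groups, from 299 to 2515 CPM in MCAO on day 3 and from 568 to 2039 CPM in sham at 12 h, and their part was not tested. Hemoglobin genes and *Alas2*, a sign of blood in the tissue, summed to 69.7 to 1416 CPM in MCAO at 12 h and to 15.6 to 138 CPM in sham. They were separated at 3 h (179.9 to 627 against 10.4 to 97.3 CPM) and on day 3 (97.7 to 478 against 12.2 to 23.6 CPM), and their part in the ISG levels was not tested. Of the other lists, *Gfap*, the astrocyte filament, was called higher at 12 h and on days 1, 3 and 7, *Aqp4* on days 3 and 7 and *Gja1* on day 7. The endothelial markers *Pecam1* and *Cdh5* were called higher on day 3 and *Slco1a4* lower at 12 h, and the mural markers *Tagln* on day 3 and *Pdgfrb* on day 7 were called higher. No oligodendrocyte, B cell, choroid plexus or striatal marker was called at any time, and the 6 B cell markers gave 143 counts in all.

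**Figure D5:**
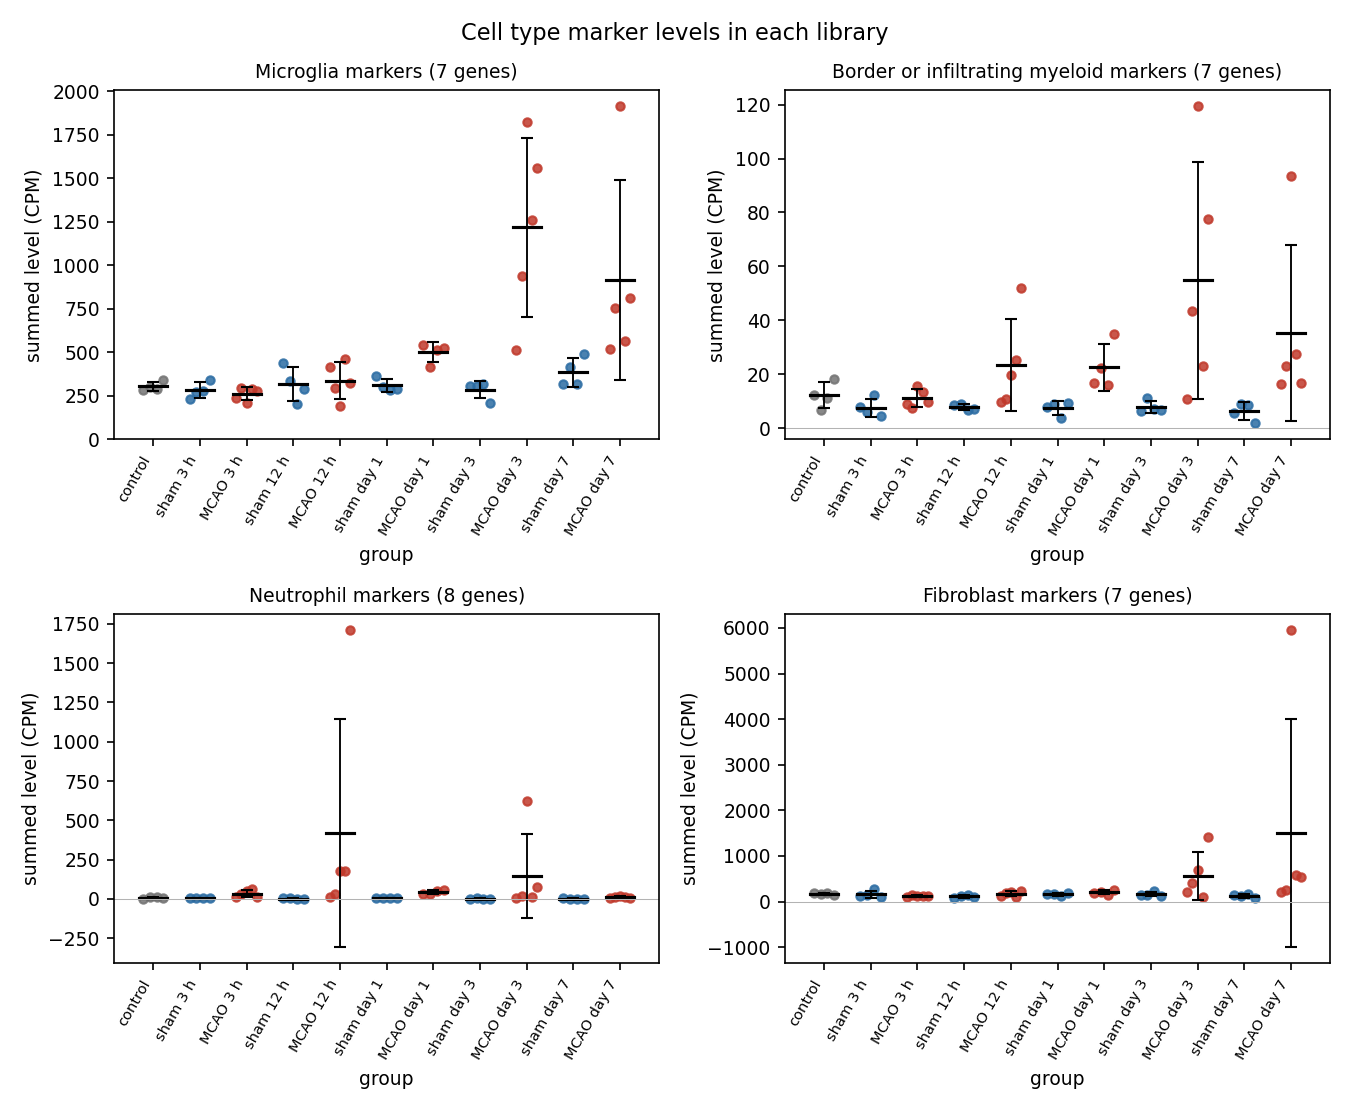
Summed level in CPM (y axis) of markers of microglia, border or infiltrating myeloid cells, neutrophils and fibroblasts in each library, by group (x axis; gray control, blue sham, red MCAO), with the group mean and SD as bars. The neutrophil markers reach 1712 CPM in MCAO replicate E at 12 h. Among the MCAO libraries of day 3 the microglia markers are lowest in replicate A at 512 CPM.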

How the data were processed

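The authors sequenced 3′ end libraries (QuantSeq) on an Illumina instrument, trimmed reads with Trimmomatic, removed ribosomal and mitochondrial reads with SortMeRNA, aligned the rest with STAR 2.5.2b to GRCm38 with ERCC spike-ins and counted reads per gene with htseq-count over Gencode vM8. Each of the 48 deposited files lists unnormalized whole-read counts by gene, with 1522668 to 2826735 gene counts each. The strand setting is not given in the sources used here. Of the tallied reads a median of 33.5% had several alignments and 23.5% fell in no gene. These and the 92 spike-ins stayed out of library sizes, so genes with near copies are undercounted. Symbols and coordinates came from Gencode vM21 (GRCm38).

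One edgeR 4.0.16 quasi-likelihood fit (R 4.3.3, TMM) of the 11 groups tested 19970 genes with more than 10 counts in total. A call needed a Benjamini-Hochberg adjusted p below 0.01 and an absolute log2 fold change above 0.58. The fit was also run on simulated data, from which no result is used here. DESeq2 1.42.0 and other scalings, filters, samples and reference groups were alternatives. Intervals and floors (3 counts) cover counting error only. The 47 members and the lists were chosen with earlier results of these data known. Genes given library by library are, in each class, the most counted member and those with the largest log2 fold change among members called on day 3 and on day 7. *Rsad2* was added after its values were seen. Outside this rule, *Stat2* and *Oasl1* at 12 h and *Cxcl10* on day 7 are also given by library. Some genes of the pathway and marker lists are not reported here and were left out of their counts and sums.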

Additional observations from a re-analysis of the deposited data

Results flagged for a closer look

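In groups of 4 or 5 libraries, 1 library stood far from the others (Dixon's criterion at 95%) in 25 of the 242 groups examined. The 22 items were the summed ISG level and 21 genes, *Rsad2* and those chosen by class. For normal and independent values chance gives about 1 in 20. Some of these genes rest on few counts, and several were flagged in the same library. The 25 groups can therefore not be set against that rate. The summed ISG level met the criterion in no group.

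MCAO replicate E at 12 h was the library most often singled out. It held 17.9 CPM of *Irf7*, 42.3 CPM of *Ifit3*, 33.9 CPM of *Ifit1*, 46.5 CPM of *Oasl2*, 85.2 CPM of *Trim30a*, 43.5 CPM of *Isg15*, 39.9 CPM of *Parp14*, 33.9 CPM of *Gbp7*, 12.5 CPM of *Ifi27l2a* and 219 CPM of *Rsad2*, each far above the other 4 libraries of its group. The same library had 1712 CPM of neutrophil markers, and the part of these cells was not tested. MCAO replicate A on day 3 was far below its group for *Trim30a* (3.74 CPM) and *Parp9* (1.07 CPM).

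In other MCAO groups, *Irf9* was high in day 7 replicate B (59 CPM), *Zbp1* (8.33 CPM) and *Ifitm2* (42.2 CPM) in day 7 replicate C, and *Rsad2* in 3 h replicate C (22.2 CPM). *Zbp1* was above 0 at 3 h only in replicate E (0.456 CPM). Among sham libraries, *Ddx58* was high in 12 h replicate A (8.94 CPM), *Oasl2* low in 12 h replicate B (4.17 CPM), *Trim30a* low in 3 h replicate D (2.18 CPM) and *Gbp3* at 0 in day 3 replicate B. *Zbp1* in sham day 7 replicate B (0.933 CPM), *Mx1* in sham 12 h replicate C (0.37 CPM) and *Mx1* in control replicate A (0.558 CPM) were single libraries above 0. *Ifitm3* was high in control replicate C (49.1 CPM).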

How the results depend on the processing

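At 12 h the main count of 2 members was 7 with no filter, 8 with DESeq2, 6 with control in place of sham, and 1 with only the groups compared. With the replicate letter as a block it was 1 at 12 h, 1 on day 1, 18 on day 3 and 13 on day 7. The block changed no other count. The letters only share a name, since deviations of same-letter libraries correlated between -0.261 and 0.148. On day 3 the count of 21 was 12 with only the groups compared. Leaving out 1 library at a time gave 1 to 5 members at 12 h (5 without MCAO A, 1 without MCAO E or sham A, B or C), 0 to 1 on day 1 (0 without sham B), 15 to 28 on day 3 and 6 to 15 on day 7. Members called elsewhere numbered 0 throughout, at 3 h, for sham against control and between times. In each of these settings every called member was higher in MCAO. The cause of these shifts was not tested.

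Over all genes, calls at 12 h numbered 82, but 13 with only the groups compared, 171 with no filter or control as reference, and 179 with DESeq2. With the replicate letter as a block they numbered 53, and leaving out 1 library at a time gave 21 to 102. At 3 h 22 became 58 with no filter or DESeq2, 44 with only the groups compared and 14 with spike-in scaling. On day 1 18 became 39 with spike-in scaling, 55 with no filter and 44 with DESeq2. The day 1 count was 51 with only the groups compared and 56 with control as reference. Leaving out 1 library at a time gave 5 to 20 at 3 h and 6 to 21 on day 1. On day 3 802 became 339 with only the groups compared, and on day 7 698 became 302 there, 300 with control as reference and 1096 with DESeq2. Day 7 against day 3 had 0, or 57 with DESeq2, 37 with no filter, 32 without MCAO A of day 3 and 17 without MCAO C of day 7. Spike-in scaling moved the median of all genes to -0.22 on day 3, 0.14 on day 1 and 0.14 on day 7. The members' medians became 1.82, 1.33 and 2.09. Medians over the members were compared across settings after the data were seen, and those of the steps from 12 h to day 1 (0.036 with spike-ins; -0.47 to 0.28 leaving out 1 library at a time, positive only without MCAO E of 12 h) and from day 3 to day 7 (0.10 with spike-ins) were above 0 there. With spike-ins they lay below the medians of all genes (0.23 and 0.30), as in the fit reported. Of 490 alternatives to the 29 gene results given in full, 395 kept their call, 95 lost it and 0 turned direction. Of the 29, 17 lost the call at least once, well-counted genes such as *Ifitm3* (day 1) and *Ifi27* (day 7) among them. Depth limits the precision of members with few counts.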

Other observations

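Members lie close together in 9 places, with spans of 9470 to 177189 bases. Of these places 3, picked after their values were seen, had unlike log2 fold changes of MCAO over sham. *Rsad2* and *Cmpk2*, side by side in chr12:26442746-26479837 (GRCm38), had 2.70 ± 0.83 and 0.11 ± 0.29 (SE) on day 3 and 3.14 ± 0.89 and -0.21 ± 0.29 on day 7. *Ifi27* and *Ifi27l2a* in chr12:103434211-103443680 had 1.38 ± 0.24 and 4.10 ± 0.69 on day 3. *Parp14*, *Dtx3l* and *Parp9* in chr16:35832874-35972605 had 1.86 ± 0.49, 0.53 ± 0.45 and 2.31 ± 0.60 on day 7. Other nearby members had closer values on day 3, such as *Ifitm2* and *Ifitm3* with 2.94 ± 0.59 and 2.80 ± 0.31, and *Oasl2* and *Oasl1* with 2.29 ± 0.44 and 2.39 ± 1.20. These differences between genes were not tested.

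Genes of the other interferon-induced list that were called on only one of the later days included *Uba7*, the enzyme that activates ISG15, with 2.69 ± 0.49 (SE; adjusted p = 0.000143) on day 3 and 1.20 ± 0.45 (SE; adjusted p = 0.086) on day 7 as log2 fold changes by edgeR. *Tap1*, a peptide transporter of antigen presentation, had 2.64 ± 0.52 (SE; adjusted p = 0.000436) and 1.61 ± 0.50 (SE; adjusted p = 0.0323). *Psmb9*, an immunoproteasome subunit, had 2.15 ± 0.58 (SE; adjusted p = 0.0131) and 3.17 ± 0.72 (SE; adjusted p = 0.00312), and *Gbp5*, a guanylate-binding protein, 1.89 ± 0.56 (SE; adjusted p = 0.0262) and 2.69 ± 0.63 (SE; adjusted p = 0.00404). The difference between the days was not a call by edgeR for these 4 genes.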
